A study of Mus musculus with 7 samples.

Results

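Sugar metabolism in mouse liver endothelium was followed through 38 genes of glycolysis, the pentose phosphate pathway, lactate handling, pyruvate entry and glucose transport, out of 52636 genes counted. The genes were taken as a list of symbols by pathway class, with no threshold on a measured value, although the list was drawn up with earlier results of these data known. The samples were RNA-seq libraries of flow-sorted liver endothelial cells from mice, 4 labelled c-Maf KO and 3 labelled control. Maf encodes c-Maf, a transcription factor of the leucine zipper family, and KO was set against control to read sugar metabolism in its absence. The labels name no deleted allele, Cre driver, strain or age, and do not say whether each library is a separate animal. A p-value therefore covers only the library-to-library spread, part of which may be technical.

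Glycolysis splits glucose into pyruvate in the cytosol, and endothelial cells are known to draw much of their ATP from it even when oxygen is present. Glucose enters through carriers of the SLC2A family, and hexokinase traps it as glucose phosphate. From there carbon can run down to pyruvate and lactate, pass into mitochondria through pyruvate dehydrogenase, or leave through the pentose phosphate pathway, which supplies NADPH and ribose phosphate for nucleotides. Most steps are served by several isozymes encoded by different genes, so a pathway can change its composition without changing its sum.

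Library totals were 25785691 to 32960007 counts in KO and 24772716 to 30415437 in controls. Maf itself stood at 28.9, 159, 124 and 37.7 CPM, the unit of level used throughout, which is the count relative to library size after TMM scaling, in KO libraries 1 to 4, against 1664, 2088 and 2147 CPM in controls 1 to 3. Pan-endothelial markers were abundant in both groups, with 11 genes (1 higher and 6 lower in KO) summing to 12564 to 17167 CPM in KO and 20448 to 22641 CPM in controls. Sums of 13 sinusoidal markers (11 lower in KO) lay between 8936 and 14760 CPM in KO, against 40878 to 45248 CPM in controls. Hepatocyte markers (16 genes, 8 higher in KO) summed to 1671, 409, 517 and 826 CPM in KO 1 to 4, against 311 to 388 CPM in controls. Of 11 erythroid markers, which summed to 6.46 to 40.7 CPM in KO and 2.63 to 10.3 CPM in controls, Rhag had no count in any library. The 16 cell cycle genes were all called higher in KO, at 692 to 804 CPM in sum, against 67.2 to 124 CPM in controls. In such bulk libraries, fewer cells of a type and less RNA per cell cannot be told apart.

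Of the 38 members, 37 passed the filter on low counts and Eno2 did not. In KO 14 members rose and 7 fell at an adjusted p under 0.05 (edgeR's quasi-likelihood test, adjusted over all genes tested), and 16 did not pass. Over all 15512 genes tested, 23.0% rose, 22.2% fell and 45.2% were called in either direction, whereas among the members 37.8% rose and 18.9% fell. The members' median log2 fold change was 0.21, with a range of -1.28 to 1.49, beside a median of 0.04 for all genes tested. Changes were mostly modest: 4 members were called with at least a 2-fold difference, which is 10.8% of those tested, against 16.5% of all genes. The KO and control libraries did not overlap in 21 members, or 56.8%, where 50.3% of all genes tested did not overlap. Of the 21 called members, 13 stayed past the threshold in each of 19 alternative fits that tested them. These were Hk2, Pfkl, Gapdh, Eno1, Slc16a3, Slc2a3, Pdk4, Tkt and Taldo1 among the rises and Ldhb, Slc16a1, Slc2a8 and Pdha1 among the falls. The balance depended on scaling, with 20 rises and 4 falls when libraries were scaled by their totals, which moves the median of all genes to 0.31, and 19 and 5 with upper-quartile factors, which move it to 0.17.

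**Figure D1:**
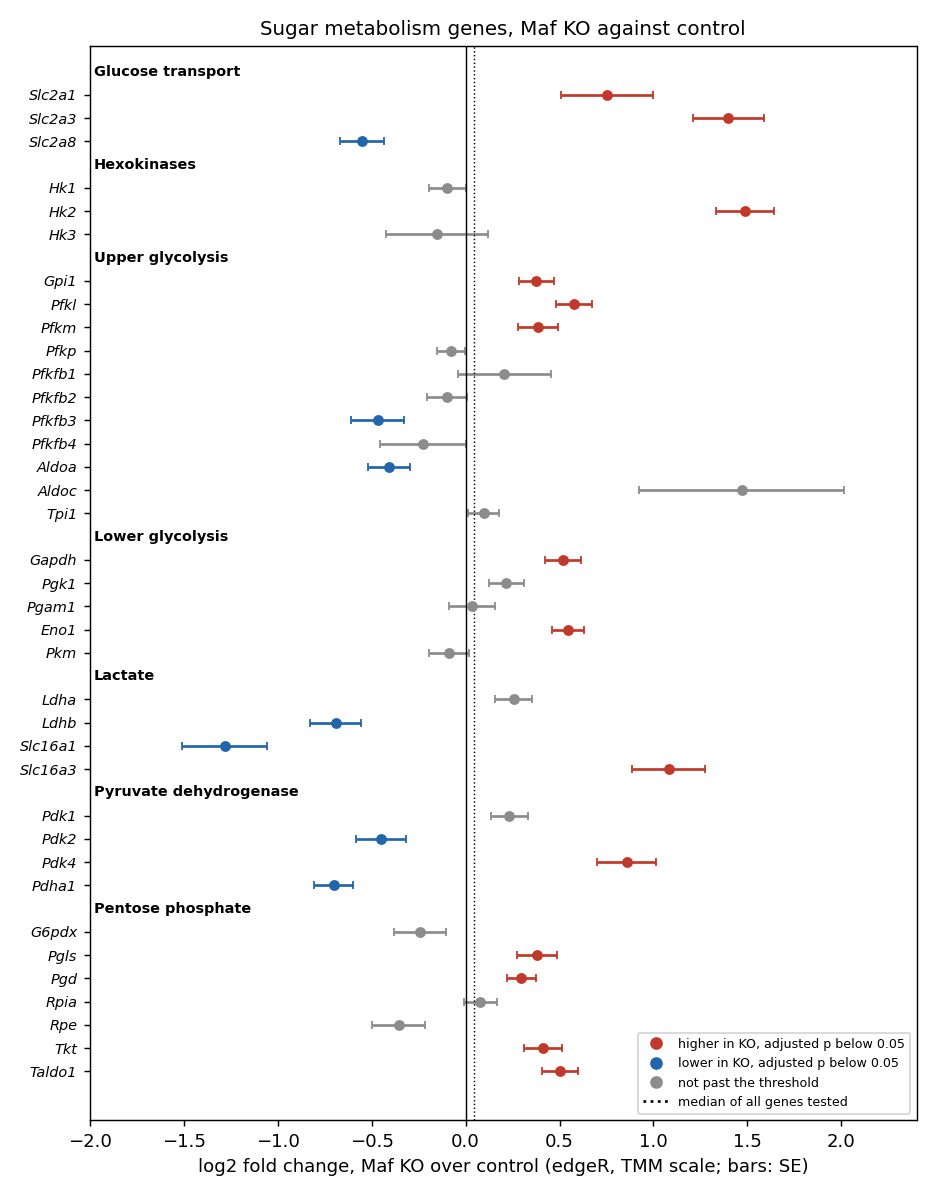
Log2 fold change (x axis, KO over control, bars are standard errors) of the 37 tested members, grouped by step of the pathway. Rises are led by Hk2 (1.49) and Slc2a3 (1.40) and falls by Slc16a1 (-1.28), and the dotted line marks the median of all genes tested (0.04).

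All 3 glucose carriers changed, the plasma membrane carriers upward and Slc2a8 downward. Slc2a3 encodes GLUT3, a high-affinity carrier best known from neurons, on chromosome 6 (chr6:122727809-122801640, minus strand, GRCm38). It stood at 12.2, 9.90, 10.04 and 8.76 CPM in KO 1 to 4, against 3.02, 4.70 and 3.90 CPM in controls 1 to 3. Every KO library was above every control, and the log2 fold change was 1.40 (SE 0.190, edgeR adjusted p = 0.000475). Platelets carry this transporter too, and platelet markers summed to 29.9 to 45.5 CPM in KO and 17.0 to 20.7 CPM in controls. Of 6 tested platelet genes 5 were called higher, while Pf4 was lower without passing (log2 fold change -0.57, edgeR adjusted p = 0.103). Itga2b alone made up most of the sum, at 23.7 to 31.8 CPM in KO and 11.1 to 13.9 CPM in controls. The part of platelets in the rise of Slc2a3 was not tested. Without KO 1 and KO 4, the libraries with the most hepatocyte and erythroid transcripts, Slc2a3 was still called. KO 1 and KO 4 also had the least Maf, at 28.9 and 37.7 CPM, against 159 and 124 CPM in KO 2 and KO 3. Leaving them out thus changes both at once. The remaining KO 2 and KO 3 had platelet sums of 37.5 and 29.9 CPM and hepatocyte sums of 409 and 517 CPM, each above every control. That fit therefore does not test the part of either cell type.

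Slc2a1 encodes GLUT1, the main glucose carrier of endothelium at the blood-brain barrier and of human red cells. Its levels were 7.50, 7.59, 6.61 and 6.46 CPM in KO, against 2.69, 5.87 and 3.99 CPM in controls. The libraries did not overlap, although control 2 lay close to KO 4, and the log2 fold change was 0.75 (SE 0.243, edgeR adjusted p = 0.0319). The call was lost without KO 1 (edgeR adjusted p = 0.0548), KO 2 (0.0640), KO 4 (0.0521), control 1 (0.0810) or control 3 (0.0868). It was lost too in lane 5 alone (0.113) and without KO 1 and KO 4 together (0.0960). Slc2a8, a carrier held mainly on intracellular membranes, had 31.3, 34.9, 42.5 and 33.9 CPM in KO, against 58.3, 49.5 and 49.0 CPM in controls. All KO libraries were below all controls (log2 fold change -0.55, SE 0.117, edgeR adjusted p = 0.00492).

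Per kilobase of exon, Slc2a8 remained the most abundant of these 3 carriers in both groups, as it was by CPM. This length merges all annotated exons, used or not (13401 bases for Pfkp and 3340 for Pfkm). Levels and shares per kilobase therefore compare different genes only approximately. Slc2a3 made up 9.78 ± 1.78% of the 3 in KO and 3.00 ± 0.770% in controls (SD, n = 4 and 3), and Slc2a1 13.9 ± 1.91% and 6.71 ± 2.74%. With 4 libraries against 3, the smallest p that an exact two-sided permutation test can give is 0.0571, so such shares cannot pass a threshold of 0.05. The Slc2a3 share did not overlap between the groups (exact two-sided permutation p = 0.0571, 0.0762 adjusted over the 8 isozyme shares tested).

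Among hexokinases, which phosphorylate glucose, Hk2 rose and the predominant Hk1 did not. Hk2 encodes the insulin- and hypoxia-responsive isozyme that binds mitochondria (chr6:82725025-82774454, minus strand, GRCm38). It had 18.9, 21.7, 17.8 and 18.8 CPM in KO, against 5.50, 8.33 and 6.84 CPM in controls. The KO libraries lay close together and well above all controls, and this was the largest called rise among the members (2.80-fold, log2 fold change 1.49, SE 0.154, edgeR adjusted p = 0.000111). Hk1, the constitutive isozyme, averaged 160 ± 17.0 CPM in KO and 172 ± 1.82 CPM in controls (edgeR adjusted p = 0.445), and its log2 fold change of -0.10 turned positive with upper-quartile factors or library totals. Hk3, best known from myeloid cells, averaged 2.51 ± 0.315 and 2.80 ± 1.11 CPM (edgeR adjusted p = 0.669). Its highest value, 4.04 CPM, was in control 2, which also had the highest sum of 11 macrophage markers (310 CPM, against 91.7 and 150 CPM in the other controls and 70.0 to 212 CPM in KO). In KO, Hk3 stood at 2.77 CPM in KO 2 and 2.79 CPM in KO 3, whose macrophage sums were 212 and 75.9 CPM. The part of macrophages in the level of Hk3 was not tested. Per kilobase, Hk2 made up 14.3 ± 1.78% of the hexokinase family in KO and 5.22 ± 0.921% in controls, with no overlap between the groups (exact two-sided permutation p = 0.0571, adjusted 0.0762).

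**Figure D2:**
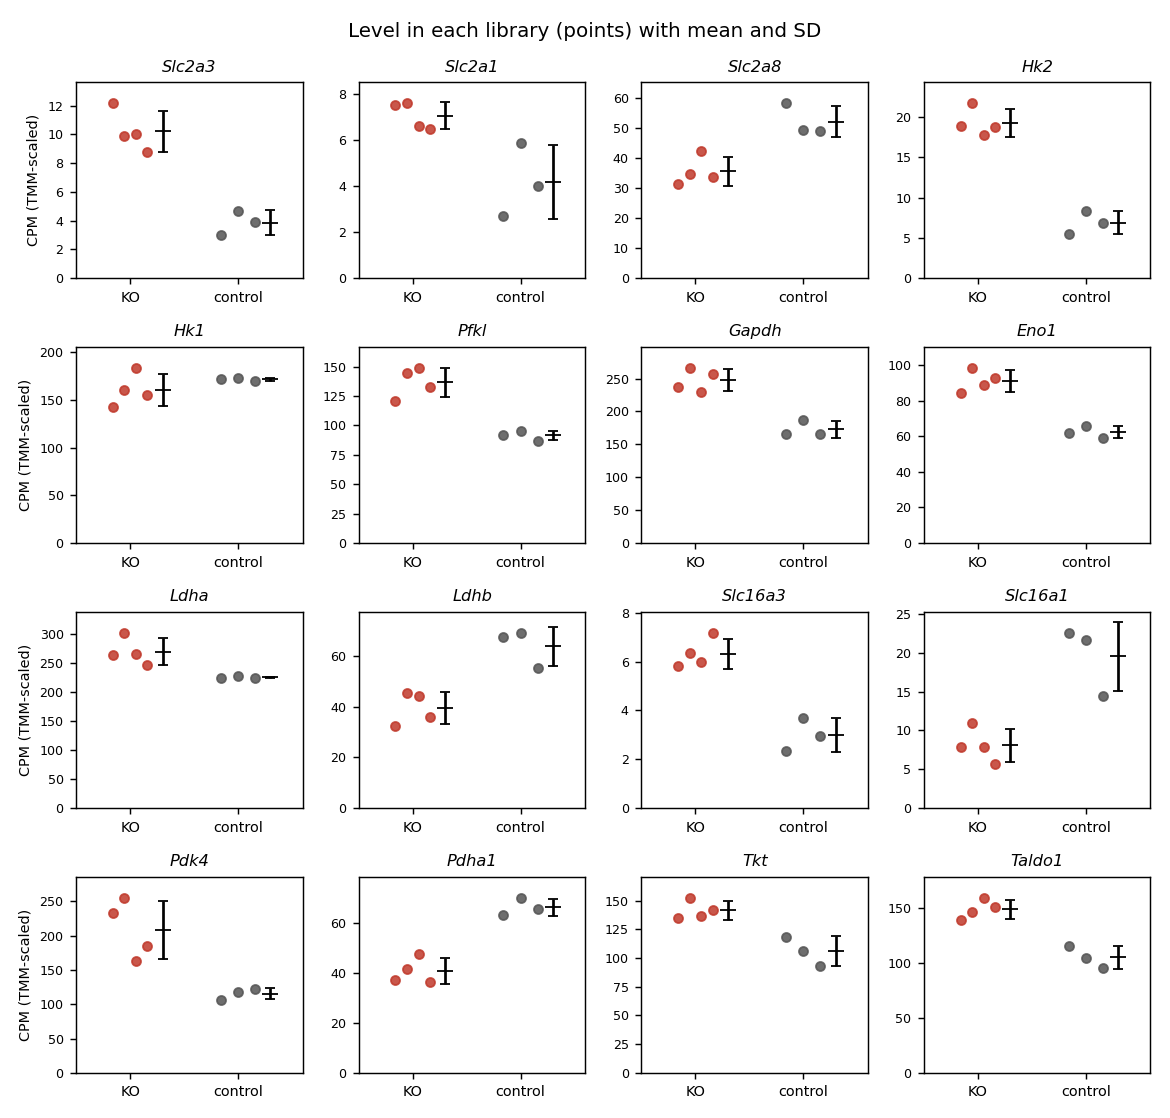
TMM-scaled CPM (y axes from 0, a scale for each gene) in each of 4 KO and 3 control libraries for 16 members; points are libraries, the dash and bar beside them the mean and SD. Slc2a3, Hk2 and Slc16a3 lie above all controls in every KO library, Slc2a8, Ldhb, Slc16a1 and Pdha1 lie below them, and Hk1 overlaps.

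In the upper, preparatory steps down to triose phosphates, the committed-step enzyme rose while aldolase and the activating kinase-phosphatase fell. Of these 11 genes, 3 passed upward (27.3%), 2 downward (18.2%) and 6 in neither direction. These shares are near those of all genes tested, 23.0% upward and 22.2% downward. Pfkl, the liver-type subunit of phosphofructokinase, which commits carbon to glycolysis, had 121, 144, 149 and 132 CPM in KO, against 92.3, 94.9 and 87.1 CPM in controls. The libraries were clearly apart (log2 fold change 0.58, SE 0.0945, edgeR adjusted p = 0.00126). Pfkm, the muscle-type subunit, had 36.1, 34.2, 34.5 and 33.1 CPM in KO, against 27.5, 22.3 and 29.6 CPM in controls (log2 fold change 0.38, SE 0.106, edgeR adjusted p = 0.0167). The gap between the groups was small for Pfkm, and its call was lost without control 2 (edgeR adjusted p = 0.0698) and without KO 1 and KO 4 together (0.0723). Pfkp, the platelet-type subunit, did not pass at 56.02 ± 1.61 CPM in KO and 59.1 ± 3.99 CPM in controls (edgeR adjusted p = 0.424), and its fold change of -0.08 (log2) turned positive with upper-quartile factors or library totals. As a share of the 3 subunits per kilobase, Pfkp stood at 12.0 ± 0.589% in KO and 17.0 ± 1.29% in controls, without overlap (exact two-sided permutation p = 0.0571, adjusted 0.0762).

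Gpi1, glucose phosphate isomerase, had 219, 221, 232 and 220 CPM in KO, against 188, 169 and 158 CPM in controls, with every KO library above the controls (log2 fold change 0.38, SE 0.0916, edgeR adjusted p = 0.00935). Its call was lost without control 2 (edgeR adjusted p = 0.0522), without control 3 (0.0541) and in lane 5 alone (0.0649). Aldoa, the ubiquitous aldolase that cleaves fructose bisphosphate, had 159, 196, 180 and 170 CPM in KO, against 260, 236 and 205 CPM in controls. It was lower in every KO library (log2 fold change -0.41, SE 0.113, edgeR adjusted p = 0.0169). Aldoa did not pass with library totals (edgeR adjusted p = 0.255), without control 1 (0.0691), without control 2 (0.0616) or without KO 1 and KO 4 together (0.0978).

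The bifunctional PFKFB enzymes make and remove a regulatory fructose bisphosphate that activates phosphofructokinase, distinct from the one that aldolase cleaves. Pfkfb3 is the isozyme known for driving glycolysis in sprouting endothelium. Pfkfb3 fell, at 40.7, 43.6, 55.1 and 42.7 CPM in KO, against 75.5, 59.5 and 53.9 CPM in controls. It was the only called member whose groups overlapped, since KO 3 lay above control 3 (log2 fold change -0.47, SE 0.141, edgeR adjusted p = 0.0236). The call was lost without KO 1 (edgeR adjusted p = 0.0548), KO 2 (0.0571), KO 4 (0.0667) or control 1 (0.0953), without KO 1 and KO 4 together (0.164), and with upper-quartile factors (0.0548) or library totals (0.208). Its relatives were not called. Pfkfb2 averaged 17.2 ± 1.42 CPM in KO and 18.5 ± 1.57 CPM in controls, Pfkfb1 3.44 ± 0.881 and 2.98 ± 0.568 CPM, and Pfkfb4 1.38 ± 0.223 and 1.61 ± 0.213 CPM (edgeR adjusted p = 0.463, 0.520 and 0.438). Tpi1, triose phosphate isomerase, averaged 61.7 ± 3.99 CPM in KO and 57.6 ± 3.44 CPM in controls (edgeR adjusted p = 0.358). Aldoc, the brain-type aldolase, was near the detection limit at 0.539 ± 0.208 CPM in KO and 0.197 ± 0.141 CPM in controls, where 3 counts correspond to 0.0873 to 0.132 CPM, and narrowly missed the threshold (edgeR adjusted p = 0.0523).

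In the lower, energy-yielding steps Gapdh and Eno1 rose and the kinases that release ATP did not pass the threshold. Gapdh, the dehydrogenase that is often used as a constant control gene, had 237, 266, 230 and 257 CPM in KO, against 165, 187 and 166 CPM in controls. All KO libraries were higher (log2 fold change 0.52, SE 0.0980, edgeR adjusted p = 0.00268). The table holds 91 near-identical copies of Gapdh elsewhere in the genome, whose reads may be split from the gene. Their counts made up 5.02 to 12.9% of the sum of gene and copies, and the call was unchanged when they were added. Eno1, the ubiquitous enolase, had 84.1, 98.2, 88.6 and 92.7 CPM in KO, against 62.0, 66.0 and 58.9 CPM in controls, again without overlap (log2 fold change 0.54, SE 0.0835, edgeR adjusted p = 0.000898). Eno2, the neuronal enolase, had 1 to 10 counts in KO libraries and 2 to 14 in controls and was not tested.

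Pkm, pyruvate kinase of most tissues other than liver and red cells, was the member with the highest count. It averaged 405 ± 27.6 CPM in KO and 430 ± 31.4 CPM in controls (log2 fold change -0.09, edgeR adjusted p = 0.511), and turned positive with upper-quartile factors or library totals. Gene counts do not separate its splice forms. Pgk1, phosphoglycerate kinase, averaged 31.2 ± 2.04 CPM in KO and 26.8 ± 2.10 CPM in controls (edgeR adjusted p = 0.0828). The phosphoglycerate mutase gene Pgam1 averaged 11.5 ± 1.24 and 11.2 ± 0.625 CPM (edgeR adjusted p = 0.838), and its log2 fold change of 0.03 turned negative in lane 5 alone or without KO 3 or control 1. Pgk1, Pgam1, Tpi1, Eno1, Pkm, Ldha, Ldhb and Gpi1 also have near-identical copies in the table, whose counts came to at most 2.24% of the sum in any library. The sources do not say how reads matching several places were counted, so levels of such genes can be understated.

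In lactate handling Slc16a3 rose while Slc16a1 and Ldhb fell, and Ldha did not pass. The monocarboxylate transporters carry lactate and pyruvate across the plasma membrane together with protons. Slc16a3 encodes MCT4, known as a carrier for lactate export in glycolytic cells (chr11:120948480-120960868, plus strand, GRCm38), and Slc16a1 encodes MCT1, a higher-affinity carrier used for uptake as well as release (chr3:104638668-104658462, plus strand). Slc16a3 had 5.801, 6.35, 5.97 and 7.17 CPM in KO, against 2.33, 3.71 and 2.94 CPM in controls. Slc16a1 had 7.85, 10.9, 7.80 and 5.64 CPM in KO, against 22.5, 21.7 and 14.5 CPM in controls. The groups were apart in both genes and in opposite directions. The log2 fold change was 1.08 for Slc16a3 (SE 0.194, edgeR adjusted p = 0.00206) and -1.28 for Slc16a1 (SE 0.227, edgeR adjusted p = 0.00192), the largest fall among the members. Per kilobase, Slc16a3 made up 40.2 ± 7.97% of this pair in KO and 11.6 ± 3.35% in controls (exact two-sided permutation p = 0.0571, adjusted 0.0762), with KO 4 highest at 51.4%.

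The promoters of these opposed carriers, and that of Hk2 as the largest called rise, were read from RefSeq on GRCm38.p6 as the 250 bases before the annotated start, and are printed 5′ to 3′ on the gene's strand. Capitals mark the letters ACGTG, the core that hypoxia-inducible factors recognise, or its reverse complement CACGT. The E-box CACGTG, which MYC-family factors bind, contains that core on both strands and is in capitals too. The windows lie at chr11:120948817-120949066 (plus strand) for Slc16a3, chr3:104638414-104638663 (plus strand) for Slc16a1 and chr6:82774455-82774704 (minus strand) for Hk2. RefSeq starts can differ from the GENCODE gene bounds given for the genes, and the Slc16a3 window lies inside its GENCODE span.
Slc16a3: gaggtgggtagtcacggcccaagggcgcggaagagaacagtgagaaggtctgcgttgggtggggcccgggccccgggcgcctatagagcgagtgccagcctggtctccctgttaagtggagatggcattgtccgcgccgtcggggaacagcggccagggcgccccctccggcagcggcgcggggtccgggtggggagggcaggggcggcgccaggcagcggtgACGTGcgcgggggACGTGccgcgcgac
Slc16a1: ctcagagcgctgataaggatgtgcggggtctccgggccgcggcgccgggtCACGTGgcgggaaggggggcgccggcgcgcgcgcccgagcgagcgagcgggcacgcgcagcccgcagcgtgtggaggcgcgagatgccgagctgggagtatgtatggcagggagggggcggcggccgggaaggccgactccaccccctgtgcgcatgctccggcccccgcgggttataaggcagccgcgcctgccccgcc
Hk2: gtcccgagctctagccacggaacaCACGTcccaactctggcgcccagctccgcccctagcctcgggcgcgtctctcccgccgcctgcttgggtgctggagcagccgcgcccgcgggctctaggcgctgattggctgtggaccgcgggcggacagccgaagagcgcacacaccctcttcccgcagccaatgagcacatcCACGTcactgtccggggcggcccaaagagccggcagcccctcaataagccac
The Slc16a3 window held the core at 2 places and no E-box, the Slc16a1 window held 1 E-box and no further core, and the Hk2 window held the core at 2 places and no E-box. Of 37 members with a window in the table (all but Slc2a3), 14 had the core in at least 1 window (37.8%), against 24.5% of 10787 tested genes with a window. The E-box was found in 6 members (16.2%), against 9.51% of those genes. Of called members, 4 of 13 that rose and 4 of 7 that fell had the core, and 1 of 13 and 3 of 7 the E-box. The half-site TGCTGAC that MAF proteins recognise occurred, on either strand, in 1 of 37 members, Pfkfb2, against 3.81% of the genes. A letter match is a description of these windows and no evidence of binding.

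Lactate dehydrogenase interconverts pyruvate and lactate, as a tetramer of the A subunit, favoured in glycolytic tissue, and the B subunit, favoured in oxidative tissue. Ldhb fell, at 32.6, 45.4, 44.5 and 36.1 CPM in KO, against 67.6, 69.2 and 55.2 CPM in controls. All KO libraries were lower (log2 fold change -0.69, SE 0.135, edgeR adjusted p = 0.00326). Ldha had 264, 301, 265 and 246 CPM in KO, against 224, 227 and 225 CPM in controls. Every KO library was above the controls, yet Ldha did not pass (log2 fold change 0.26, SE 0.0974, edgeR adjusted p = 0.0575). It passed with library totals, with upper-quartile factors, with a filter of at least 1 CPM in 3 libraries, and without KO 1 and KO 4 together. Per kilobase, Ldhb made up 23.6 ± 2.29% of the 2 subunits in KO and 37.4 ± 2.82% in controls (exact two-sided permutation p = 0.0571, adjusted 0.0762).

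**Figure D3:**
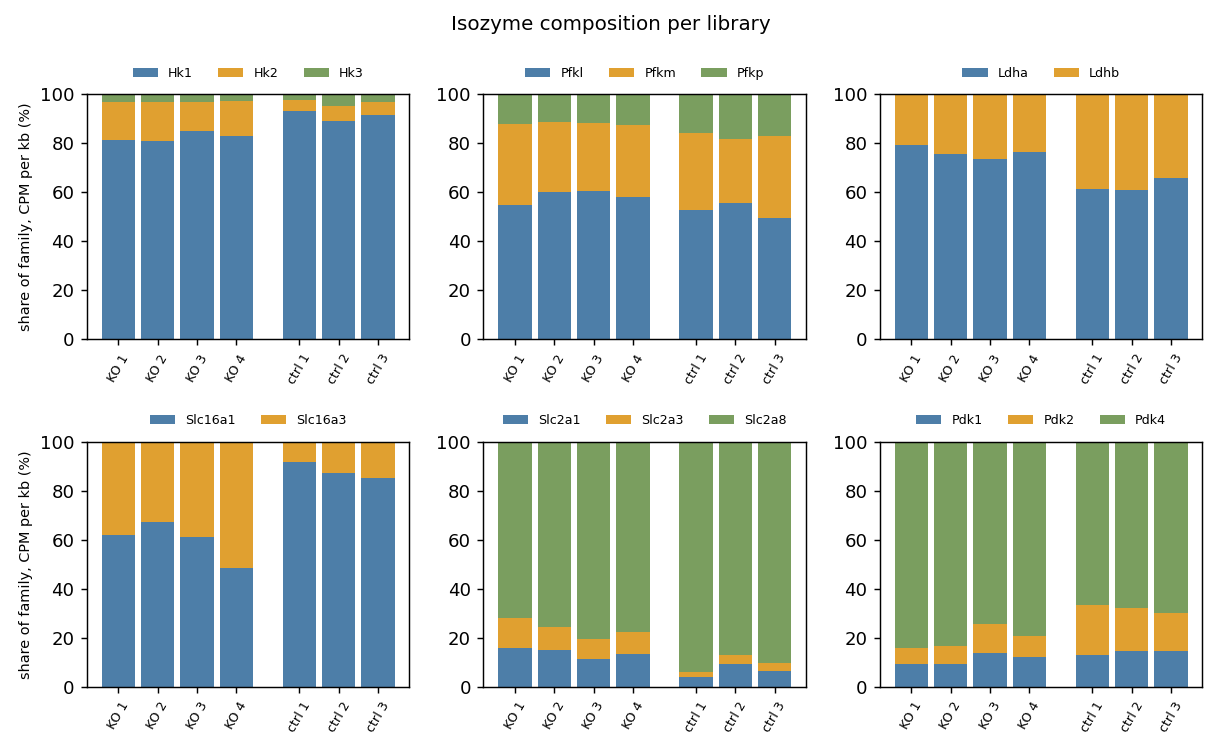
Share of each isozyme in its family's summed CPM per kilobase of exon (y axis, percent) in each library, KO 1 to 4 on the left and controls 1 to 3 on the right of each panel. The Slc16a3 share is 32.6 to 51.4% in KO and 7.92 to 14.5% in controls, the Ldhb share 20.6 to 26.2% in KO and 34.1 to 39.2% in controls, and the Pdk4 share 74.4 to 84.1% in KO and 66.7 to 69.7% in controls.

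At the entry of pyruvate into mitochondria, a subunit of the enzyme fell and an inhibitory kinase rose. Pdha1 encodes the catalytic alpha subunit of pyruvate dehydrogenase, on the X chromosome (chrX:160122209-160138413, minus strand, GRCm38). It had 37.2, 41.5, 47.4 and 36.3 CPM in KO, against 62.9, 69.8 and 65.5 CPM in controls. The groups were far apart relative to their spread (log2 fold change -0.70, SE 0.104, edgeR adjusted p = 0.000757). Its exons share 603 bases with Map3k15 on the opposite strand, which had 682 counts in all libraries against 10085 for Pdha1. The PDK kinases switch the enzyme off by phosphorylation, and Pdk4 is the isozyme induced by fasting and fatty acids. Pdk4 had 233, 255, 163 and 184 CPM in KO, against 106, 117 and 122 CPM in controls, so that KO 1 and KO 2 were well above KO 3 and KO 4 (log2 fold change 0.86, SE 0.157, edgeR adjusted p = 0.00230). The sum of 16 dissociation stress genes, 8 of them called higher, was likewise highest in KO 1 and KO 2, at 27556, 22453, 13666 and 16411 CPM in KO 1 to 4, against 9346 to 12067 CPM in controls, and its part in the rise of Pdk4 was not tested.

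Pdk2, a widely expressed kinase of the same family, moved the other way. It had 16.2, 20.8, 23.5 and 18.6 CPM in KO, against 29.2, 27.6 and 24.2 CPM in controls, with KO 3 just under control 3 (log2 fold change -0.45, SE 0.133, edgeR adjusted p = 0.0224). Its call was lost without KO 4 (edgeR adjusted p = 0.0624), control 1 (0.0804) or control 2 (0.0740), without KO 1 and KO 4 together (0.120), and with upper-quartile factors (0.0506) or library totals (0.216). Pdk1, the kinase known as a hypoxia target, averaged 62.8 ± 3.84 CPM in KO and 53.4 ± 6.49 CPM in controls and did not pass (edgeR adjusted p = 0.0820). Per kilobase, Pdk4 made up 80.1 ± 4.42% of the 3 kinases in KO and 68.0 ± 1.55% in controls (exact two-sided permutation p = 0.0571, adjusted 0.0762).

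Of the 7 pentose phosphate members, 4 rose modestly (57.1%, against 23.0% of all genes tested), and the other 3 did not pass. Tkt and Taldo1, transketolase and transaldolase, exchange carbon units between pentoses and glycolytic intermediates. Taldo1 had 138, 146, 159 and 151 CPM in KO, against 115, 104 and 95.1 CPM in controls (log2 fold change 0.50, SE 0.0949, edgeR adjusted p = 0.00269). Tkt had 134, 152, 137 and 142 CPM in KO, against 119, 106 and 93.2 CPM in controls (log2 fold change 0.41, SE 0.101, edgeR adjusted p = 0.00948). Neither gene overlapped between the groups.

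In the oxidative branch, Pgls, the lactonase, had 80.7, 90.5, 72.3 and 85.7 CPM in KO, against 70.7, 62.4 and 56.6 CPM in controls (log2 fold change 0.38, SE 0.107, edgeR adjusted p = 0.0179). Pgd, phosphogluconate dehydrogenase, had 79.4, 87.3, 76.6 and 83.5 CPM in KO, against 67.4, 66.9 and 65.2 CPM in controls (log2 fold change 0.30, SE 0.0755, edgeR adjusted p = 0.0115). KO 3 was lowest among the KO libraries in both genes and still above all controls. Pgls lost its call without KO 2 (edgeR adjusted p = 0.0505), control 2 (0.0710), control 3 (0.0796) or KO 1 and KO 4 together (0.0744), and Pgd without control 2 (0.0516) or control 3 (0.0533). Pgls shares 776 exon bases with Fam129c on its own strand, which had 681 counts against 15182. Neighbours with counts near or above the member's lie on the opposite strand of other members. Ikbkg had 8031 counts against 2851 for G6pdx, Kansl1l 4099 against 4302 for Rpe, and Pitrm1 11621 against 11515 for Pfkp. Over fewer shared bases (18 to 154), Unc5a had 19852 against 525 for Hk3 and Apex2 2716 against 655 for Pfkfb1. Likewise Yod1 had 3584 against 3545 for Pfkfb2, and Senp1 11826 against 6342 for Pfkm, the only called gene among them. On the same strand as Pkm, Gm49759 shares 767 exon bases and had 10360 counts against 83656. The levels of these members are therefore uncertain. G6pdx, the glucose phosphate dehydrogenase that sets the pathway's entry rate, did not pass. It averaged 13.2 ± 1.87 CPM in KO and 15.6 ± 1.75 CPM in controls (log2 fold change -0.24, edgeR adjusted p = 0.178), and turned positive with library totals. The isomerase Rpia averaged 30.005 ± 1.92 CPM in KO and 28.4 ± 1.72 CPM in controls, and the epimerase Rpe 19.3 ± 3.54 and 24.7 ± 1.45 CPM (edgeR adjusted p = 0.494 and 0.0625).

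The rest of the pathway was read from a list of 54 further genes, of which 45 were tested. In KO 10 rose and 14 fell, or 22.2% and 31.1%, against 23.0% and 22.2% of all genes tested. The median log2 fold change was -0.01. Without control 1 or control 2 the rises numbered 6 and 5, and with KO 1 and KO 4 left out 6 rose and 9 fell. Library totals gave 16 rises and 6 falls. Sord, sorbitol dehydrogenase, which turns sorbitol into fructose, had 24.1, 21.4, 24.9 and 18.1 CPM in KO, against 105, 94.4 and 89.3 CPM in controls (log2 fold change -2.12, SE 0.118, edgeR adjusted p = 6.73e-06). H6pd, the glucose phosphate dehydrogenase of the endoplasmic reticulum lumen, had 41.5, 49.4, 55.7 and 37.2 CPM in KO, against 157, 156 and 169 CPM in controls (log2 fold change -1.81, SE 0.133, edgeR adjusted p = 2.34e-05). KO libraries were below every control by a wide gap in both. The inositol carrier gene Slc2a13 fell 2.22-fold to 10.9 ± 1.56 CPM in KO, against 24.3 ± 2.15 CPM in controls. Pgm1 and Pgm2l1, which interconvert hexose phosphates or make their bisphosphates, fell 1.70- and 2.26-fold.

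Among the rises, Pck2, the mitochondrial enzyme that makes phosphoenolpyruvate, stood at 79.9, 82.9, 78.3 and 90.1 CPM in KO, against 52.7, 47.3 and 47.7 CPM in controls (log2 fold change 0.75, SE 0.0836, edgeR adjusted p = 0.000164). Prps1, which makes the phosphoribosyl donor of nucleotide synthesis from ribose phosphate, rose 1.73-fold to 12.7 ± 0.890 CPM in KO, against 7.36 ± 0.111 CPM in controls. Tigar, a phosphatase known as a p53 target, lowers the regulatory fructose bisphosphate that activates phosphofructokinase. It rose 1.66-fold to 10.6 ± 0.687 CPM in KO, against 6.36 ± 0.921 CPM in controls. Pklr, the liver and red cell pyruvate kinase, was looked at because hepatocyte transcripts differed between libraries, a choice made after its values were seen. It had 3.04, 1.66, 1.13 and 0.885 CPM in KO, against 0.291, 0.2498 and 0.307 CPM in controls (edgeR adjusted p = 0.00310). KO 1 was highest in Pklr and in the sum of hepatocyte markers. KO 4, with the next highest sum (826 CPM), was the lowest KO library in Pklr. KO 2, with the lowest KO sum (409 CPM), was next to KO 1 in Pklr. The part of hepatocyte transcripts in the level of Pklr was not tested.

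Known regulators of sugar metabolism changed in opposite directions. Of 21 tested genes 7 rose and 7 fell (33.3% each, against 23.0% and 22.2% of all genes tested), with a median log2 fold change of -0.19. Myc and Mycn encode transcription factors that activate glycolytic and ribosomal genes in many cells. Myc had 312, 294, 152 and 241 CPM in KO, against 22.6, 28.1 and 21.4 CPM in controls (log2 fold change 3.38, SE 0.257, edgeR adjusted p = 2.62e-05), and Mycn rose 27.6-fold. Ppard, a nuclear receptor that induces Pdk4 in muscle, rose 1.35-fold, and Klf2, a shear stress factor known to repress Pfkfb3 in endothelium, rose 1.77-fold to 3648 ± 832 CPM in KO, against 2056 ± 37.6 CPM in controls. Klf2 had 4617, 3974, 2690 and 3313 CPM in KO 1 to 4, and both Klf2 and Myc were, like the sum of dissociation stress genes given above, highest in KO 1, then KO 2, KO 4 and KO 3. The part of that stress signal in these rises was not tested. Among the hypoxia factors, Epas1 fell in every fit tried, and the calls of Arnt and Hif1a depended on the fit. Epas1, which encodes the endothelial HIF2 alpha subunit, had 485, 622, 935 and 542 CPM in KO, against 1330, 1389 and 1248 CPM in controls (log2 fold change -1.03, SE 0.212, edgeR adjusted p = 0.00410). Arnt, the shared partner subunit, fell 1.28-fold, and did not pass with library totals (edgeR adjusted p = 0.295) or without KO 1 and KO 4 together (0.0589). Hif1a, named after its values were seen, had 73.6, 82.3, 87.6 and 62.4 CPM in KO, against 92.3, 101 and 98.1 CPM in controls (edgeR adjusted p = 0.0368). It did not pass without KO 1 (edgeR adjusted p = 0.0719), KO 4 (0.0648) or any single control (0.0572 to 0.119), without KO 1 and KO 4 together (0.137), without the filter on low counts (0.0563), with upper-quartile factors (0.0920) or with library totals (0.473), where its log2 fold change was -0.08.

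Of the oxygen-sensing hydroxylases, which mark HIF alpha subunits for degradation and are HIF targets themselves, Egln3 rose and Egln1 fell. Egln3 had 11.2, 8.40, 6.61 and 7.55 CPM in KO, against 1.57, 3.96 and 4.52 CPM in controls, and Egln1 fell 1.51-fold (edgeR adjusted p = 0.0115 for each). Without KO 1 and KO 4 together neither passed (edgeR adjusted p = 0.0596 for Egln3 and 0.0732 for Egln1), and Egln1 did not pass without control 2 (0.0571) or with library totals (0.0518). Of 16 hypoxia-responsive genes outside glycolysis, all tested, 4 rose (25%) and 9 fell (56.25%), against 23.0% and 22.2% of all genes tested. Their median log2 fold change was -0.41, and Egln1 and Egln3 are counted both here and among the regulators. Ndrg1, a stress-induced cytosolic protein, stood at 92.1, 99.4, 124 and 76.2 CPM in KO, against 310, 396 and 369 CPM in controls (log2 fold change -1.87, SE 0.163, edgeR adjusted p = 4.63e-05). Vegfa, the angiogenic growth factor, had 19.7, 14.8, 13.3 and 15.02 CPM in KO, against 45.6, 39.5 and 42.0 CPM in controls (log2 fold change -1.43, SE 0.134, edgeR adjusted p = 6.52e-05). The mitophagy receptor gene Bnip3l, the thiol oxidase gene Ero1l and the collagen prolyl hydroxylase gene P4ha2 fell 2.11-, 1.78- and 1.48-fold. The rises were Egln3, the peptide hormone gene Adm (3.16-fold), Ankrd37 (4.73-fold) and Anln (8.54-fold), of which Anln encodes a cytokinesis protein and stands beside the called rise of all 16 cell cycle genes. The members that rose and the hypoxia-responsive genes that mostly fell were fitted in the same libraries, and the difference between the lists was not tested.

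**Figure D4:**
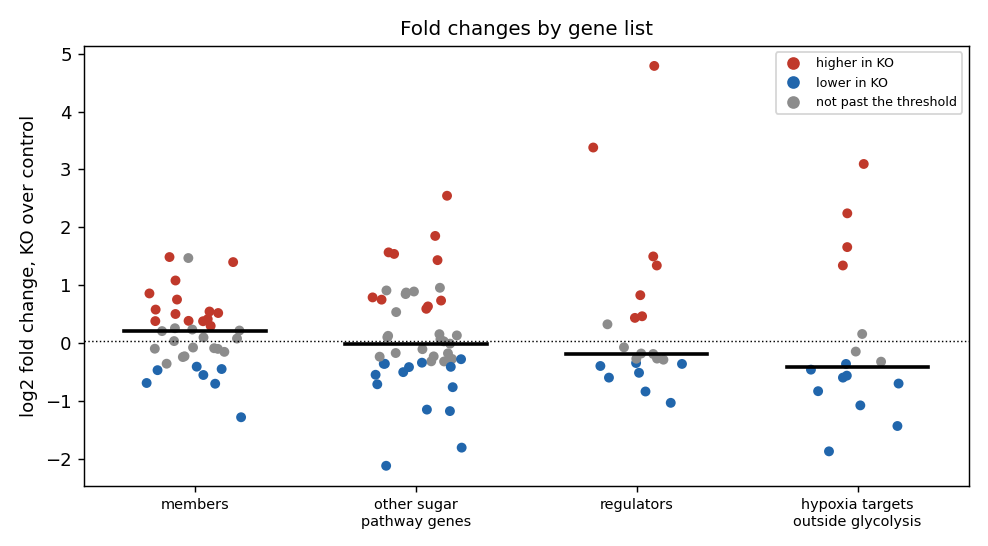
Log2 fold change (y axis, KO over control) of each tested gene in 4 lists, with the list's median as a bar and the median of all genes tested (0.04) as a dotted line. The medians run from 0.21 for the members through -0.01 and -0.19 to -0.41 for hypoxia-responsive genes outside glycolysis, and each list holds both rises and falls.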

How the data were processed

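The authors deposited raw read counts per Ensembl gene, not normalized. FastQC 0.11.5, STAR 2.7.6a and build GRCm38 are named in the submitters' processing notes. The counting tool, strand setting and treatment of reads that match several places are not stated. Per the labels' protocols, libraries came from a TruSeq kit that may or may not mark strand. Reads of genes overlapping on opposite strands therefore cannot be told apart. Among members Pfkp, Rpe, G6pdx, Pdha1 and Gpi1 share 418 to 748 exon bases with such a neighbour, and some others share fewer.

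From these counts, 15512 genes passed filterByExpr in edgeR 4.0.16 (R 4.3.3; minimum 10 counts, total 15) and were scaled by TMM. KO was tested against control by the quasi-likelihood F-test without covariate and Benjamini-Hochberg adjustment over all genes, at a threshold of 0.05. Standard errors are the absolute log2 fold change over the square root of F. Of 52636 identifiers, 52489 matched a symbol in GENCODE M21, which also gave coordinates and exon lengths (all annotated exons merged). Where a symbol had several identifiers, the most abundant was used. Near-identical copies were transcripts with at least 95% identity over 300 bases elsewhere in the genome (blastn). Promoter windows came from RefSeq, on the gene's strand and build GRCm38.p6. The limit of 3 counts covers counting error only. Libraries of the same group differed by more than counting error (chi-square over degrees of freedom 14.5 to 106), so none was merged. Lane 4 held KO 3 and control 3, and lane 5 the other libraries. The test was checked on simulated counts in which few genes changed, as many up as down. Since 45.2% of genes were called here, that check does not cover the choice of scaling.

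All 38 members are accounted for, with values in every library for those called. Other lists name the 8 smallest p past the threshold per list, unless stated. Some genes of the other lists are counted but not reported here. Members and lists were chosen with earlier results of these data known. Alternatives used other scalings, filters and tests (DESeq2 1.42.0, voom in limma 3.58.1), lane, replicate block, copies added and left-out libraries.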

Additional observations from a re-analysis of the deposited data

Results flagged for a closer look

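Of the KO libraries, a single value stood apart from the other 3 in 2 genes, by a gap past Dixon's critical value for 4 samples. Chance alone puts about 1 in 20 groups past that limit. The members, the isozyme shares and nearly all tested genes of the pathway, regulator and hypoxia lists were checked. The 2 flags are thus no more than chance would give. Pgm2l1 had 8.44 CPM in KO 3 and 5.55 to 5.83 CPM in the other KO libraries, a gap of 0.903 of the KO range. P4ha2 had 20.4 CPM in KO 1 and 25.6 to 26.4 CPM in the others (0.854 of the range). No sugar metabolism member was among them.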

How the results depend on the processing

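Directions of all 21 called members held in each of 19 alternatives, and DESeq2, voom, DESeq2 size factors, lane as covariate, no filter and added copies kept their calls. Library totals gave 6373 higher and 1976 lower calls over all genes (3561 and 3448 with TMM), 4 members lower, and 16 higher and 6 lower in the further pathway. Leaving out KO 1 and KO 4 gave 2234 higher calls over all genes, 4 members lower, and 6 higher and 9 lower in the further pathway. Leaving out single libraries gave 10 to 14 members higher and 4 to 8 lower, and 5 to 11 higher and 10 to 14 lower in the further pathway. Deviations of log2 CPM from the group mean correlated at -0.01, 0.16 and 0.07 between same-numbered KO and control libraries. Between differently numbered libraries they correlated at -0.18 to 0.08. With so few libraries these values cannot decide whether the numbers pair them. A replicate block gave 12 members higher and 4 lower (Gpi1, Pgd, Aldoa, Pfkfb3 and Pdk2 no longer passed), with 9 lower in the further pathway. Lane 5 alone gave 13 and 8 members. Without length, the share differences were 6.87 (Hk2), -8.67 (Pfkp), -9.27 (Ldhb) and 12.9 (Slc2a3) percentage points. Per kilobase they were 9.09, -4.98, -13.7 and 6.79 percentage points. Uncalled log2 fold changes that changed sign were, with library totals, Hk1 0.17, Hk3 0.115, Pfkp 0.19, Pfkfb2 0.17, Pfkfb4 0.0399, Pkm 0.18 and G6pdx 0.0230; with upper-quartile factors, Hk1 0.0262, Pfkp 0.0494, Pfkfb2 0.0279 and Pkm 0.0362; without KO 1 and KO 4, Hk1 0.0022 and Pfkfb1 -0.15; and in lane 5 alone, Tpi1 -0.0044 and Pgam1 -0.0464. Leaving out single libraries gave log2 fold changes of -0.375 to 0.205 for Hk3 (positive without control 2) and -0.0445 to 0.0841 for Pgam1, and an Eno2 share difference of -0.482 to 0.0399 percentage points (positive without control 3, and 0.0990 in lane 5 alone). The causes were not tested.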
